A study of Mus musculus with 15 samples.

Results

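The 46 genes described here encode assembly factors of the large ribosomal subunit, proteins that build the subunit in the nucleolus, nucleoplasm and cytoplasm and do not stay in the finished ribosome. They were chosen by a list of nucleolar and pre-60S factor symbols. The list names genes by role and sets no measured value, but it was chosen with earlier results of these data known. All 46 listed symbols were found among the 23845 genes of each library. All 46 passed the filter on low counts that left 14335 genes for testing. Poly(A) RNA was sequenced from E14 mouse embryonic stem cells grown on 0.2% gelatin and given siRNA with Lipofectamine 2000, with fresh medium after 16 h and harvest at 48 h. The siRNA groups were Ddx10KD, Ddx24KD, Ddx27KD and Ddx54KD, each against 1 DEAD-box RNA helicase gene, and EGFPKD, the control siRNA, with 3 biological replicates in each group. The labels name 1 strain, E14, for all 15 libraries and give no other genetic change, and every group, EGFPKD included, went through siRNA transfection. The labels give no siRNA sequence or number of siRNAs per gene.

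A large subunit starts as a nucleolar precursor on which early factors fold the 28S and 5.8S parts of the ribosomal RNA. The spacer between these parts, ITS2, is then cut and trimmed, and the precursor moves through the nucleoplasm to the cytoplasm, where export and placeholder proteins are taken off. DEAD-box helicases remodel RNA and protein contacts along this path, and in cells that divide as fast as embryonic stem cells the demand for new subunits is high. The roles given below are those described for the yeast or human orthologues.

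The libraries held 26836946 to 27708782 expected counts and 16847 to 17168 genes with at least 1 count. Each helicase mRNA was reduced in its own knockdown, with Ddx10 left at 18.5 ± 4.25% of its EGFPKD mean, Ddx24 at 30.8 ± 4.89%, Ddx27 at 22.7 ± 0.818% and Ddx54 at 28.0 ± 4.68% (SD, n = 3). Some were also lower in another knockdown by edgeR's quasi-likelihood test. Ddx24 was at 79.1 ± 0.267% in Ddx10KD (adjusted p = 0.00412) and 84.8 ± 2.24% in Ddx27KD (adjusted p = 0.0289). Ddx27 was at 85.3 ± 4.24% in Ddx54KD (adjusted p = 0.00624). The remaining helicase mRNAs did not pass at 0.05 in the knockdowns of the others. Along the first principal component of log2 CPM, which held 42.0% of the variance, the 12 knockdown libraries lay between -2.67 and 20.1 and the 3 EGFPKD libraries between -45.2 and -39.7. Ddx24KD replicate 2 lay at -2.67, away from 10.3 and 19.2 for the other libraries of its group, and Ddx54KD replicate 1 at -2.51, away from 5.29 and 13.1. The 7 pluripotency markers summed to 6791 to 7162 TPM over the knockdown libraries and 6902 to 7101 TPM in EGFPKD, but they did not all keep their control level. Nanog (416 to 538 TPM in knockdown libraries, 586 to 592 TPM in EGFPKD) and Zfp42 (629 to 762 TPM in knockdown libraries, 821 to 899 TPM in EGFPKD) were below the control in every knockdown library. Sox2 (543 to 643 TPM in knockdown libraries, 480.3 to 514 TPM in EGFPKD) and Dppa5a (2514 to 2820.3 TPM in knockdown libraries, 2237 to 2498 TPM in EGFPKD) were above it. Pou5f1, at 1619 to 1678 TPM in EGFPKD, was lower in Ddx24KD, Ddx27KD and Ddx54KD, at 1443 to 1553 TPM. In Ddx10KD Pou5f1 overlapped the control, at 1568 to 1624 TPM. Esrrb was below the control in Ddx10KD and Tdgf1 above it in Ddx27KD, and both overlapped it in the other knockdowns. The 7 fibroblast markers, mostly Thy1, summed to 10.7 to 16.8 TPM in knockdown libraries and 17.5 to 25.6 TPM in EGFPKD, and Postn was at 0 in every group. The 5 trophoblast markers, mostly Tfap2c, summed to 82.7 to 139 TPM in knockdown libraries and 64.8 to 81.3 TPM in EGFPKD. The 6 endoderm, 5 mesoderm and 4 ectoderm markers summed to at most 8.18 TPM in any library. The part of these shifts in the results below was not tested.

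As messenger RNA per transcript length, the 46 genes spanned a wide range of levels. Npm1, which encodes the abundant nucleolar chaperone nucleophosmin, averaged 7193 TPM over the 15 libraries, the highest of the set. Ncl, for nucleolin, followed at 629 TPM, Rsl1d1, a nucleolar protein with a ribosomal L1 domain, at 380 TPM and the SUMO protease gene Senp3 at 332 TPM. The lowest levels were those of Noc3l at 54.1 TPM, Urb1 at 53.1 TPM and Surf6 at 46.1 TPM, and every member stood at or above the 75th percentile of tested genes. The smallest expected count of any member in any library was 1316, for Sbds.

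**Figure D1:**
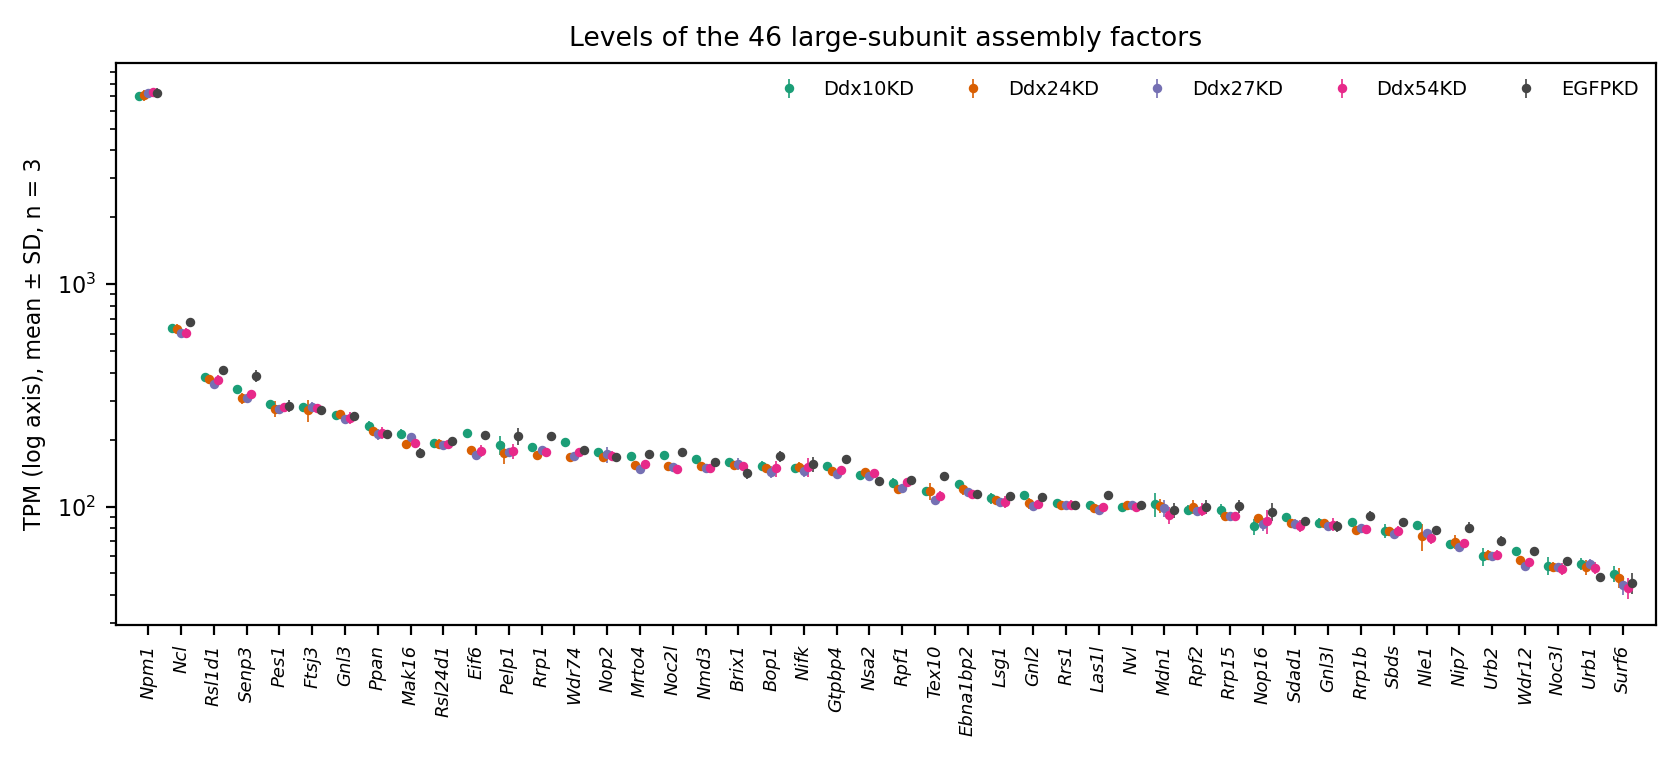
Levels of the 46 assembly factors in TPM (log axis) as mean ± SD of 3 libraries per group, ordered by the mean over all 15 libraries. Npm1 stands far above Ncl, and the 5 groups lie close together for nearly every gene.

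The summed level of the 46 members was 14132 ± 405 TPM in Ddx10KD, 13884 ± 538 TPM in Ddx24KD, 13902 ± 187 TPM in Ddx27KD and 14037 ± 460 TPM in Ddx54KD, against 14450 ± 520 TPM in EGFPKD (SD, n = 3 each). Npm1 alone made about as much as the others together. Without it the sums were 7074 ± 128 TPM in Ddx10KD, 6770 ± 154 TPM in Ddx24KD, 6662 ± 57.3 TPM in Ddx27KD and 6727 ± 240 TPM in Ddx54KD, against 7208 ± 139 TPM in EGFPKD. In Ddx24KD, Ddx27KD and Ddx54KD every library was below the lowest EGFPKD library, at 7071 TPM, while the Ddx10KD libraries, at 6959 to 7212 TPM, overlapped the control.

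Most changes were small and downward. In Ddx10KD, 12 members fell and 1 rose against EGFPKD at an adjusted p under 0.05 by edgeR's quasi-likelihood test, where 31% of all tested genes passed, 14.5% lower and 16.5% higher. In Ddx24KD, 14 members fell and none rose, where 28.1% of all genes passed, 13.1% lower and 15% higher. In Ddx27KD, 18 members fell and 2 rose, where 33.4% of all genes passed, 16.1% lower and 17.3% higher. In Ddx54KD, 16 members fell and none rose, where 24.3% of all genes passed, 11.2% lower and 13.1% higher. The members that fell were thus 26.1%, 30.4%, 39.1% and 34.8% of the 46 in the order Ddx10KD, Ddx24KD, Ddx27KD and Ddx54KD.

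The members are well expressed, which gives their tests more counts than most genes have. Among the 9032 genes with at least 10 CPM in 3 or more libraries, 18% were lower in Ddx10KD, 16.8% in Ddx24KD, 19.6% in Ddx27KD and 14.6% in Ddx54KD. That set was not matched to the levels of the members. The part of higher counts in the members' share of lower calls was not tested. The median log2 change of the 46 was -0.09 in Ddx10KD, -0.10 in Ddx24KD, -0.11 in Ddx27KD and -0.11 in Ddx54KD, beside medians of all tested genes between 0.00 and 0.01. The log2 changes of the members that fell lay between -0.31 and -0.16 in Ddx10KD, -0.35 and -0.14 in Ddx24KD, -0.37 and -0.16 in Ddx27KD and -0.31 and -0.16 in Ddx54KD. In these bulk samples, fewer cells of a type and less RNA per cell cannot be told apart.

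**Figure D2:**
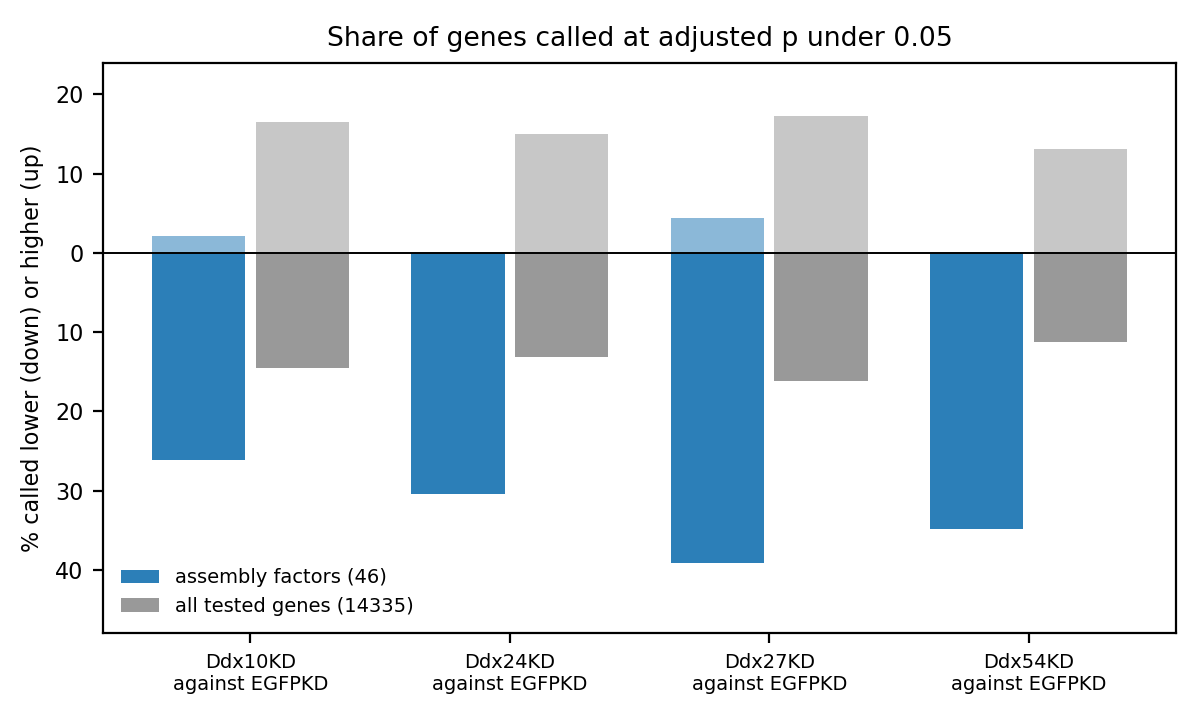
Percentage of the 46 assembly factors (blue) and of all 14335 tested genes (grey) that were lower (below the zero line) or higher (above it) in each knockdown against EGFPKD at an adjusted p under 0.05. The blue bars reach 26.1% to 39.1% on the lower side, against 11.2% to 16.1% for all genes.

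With the replicate number as a block the counts grew, to 16 lower and 4 higher in Ddx10KD, 21 lower and 4 higher in Ddx24KD, and 24 lower and 3 higher in Ddx54KD. In that fit 44% of all genes passed in Ddx10KD (21.3% lower, 22.8% higher), 41.2% in Ddx24KD (19.9% lower, 21.3% higher) and 38.9% in Ddx54KD (18.8% lower, 20% higher). In Ddx27KD 26 members fell and 3 rose with the block, where 45.8% of all genes passed (22.6% lower, 23.3% higher). Single libraries also moved the counts of the fit without the block. The count in Ddx10KD was 8 without Ddx10KD replicate 3 and 8 without EGFPKD replicate 1, that in Ddx24KD was 8 without Ddx24KD replicate 3, and that in Ddx54KD was 10 without Ddx54KD replicate 3. Without the 5 libraries numbered replicate 2, left out after their values were known, the counts were 7 in Ddx10KD and 9 in Ddx54KD. Calls among all genes dropped as well in Ddx54KD, to 2161 from 3483 in the fit of all libraries. The drop in Ddx54KD is therefore not a result about the members alone. For Ddx10KD without the replicate 2 libraries the count of all genes is not given here, so its 7 members have no background. Over all tested genes, leaving out single libraries moved the number that passed between 3193 and 4765 in Ddx10KD, 2866 and 4307 in Ddx24KD, 3880 and 5138 in Ddx27KD and 2232 and 3868 in Ddx54KD.

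Counted without a test, all 3 knockdown libraries lay below all 3 EGFPKD libraries for 16 members in Ddx10KD, where this held for 22.4% of all genes, and for 18 members in Ddx24KD, where it held for 19.6%. It held for 25 members in Ddx27KD, beside 23.3% of all genes, and for 23 members in Ddx54KD, beside 19.5%. The opposite order, all 3 knockdown libraries above, was seen for 2 members in Ddx10KD, 3 in Ddx24KD, 2 in Ddx27KD and 2 in Ddx54KD, where all genes gave 23.8%, 21.1%, 23.4% and 20.7%.

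**Figure D3:**
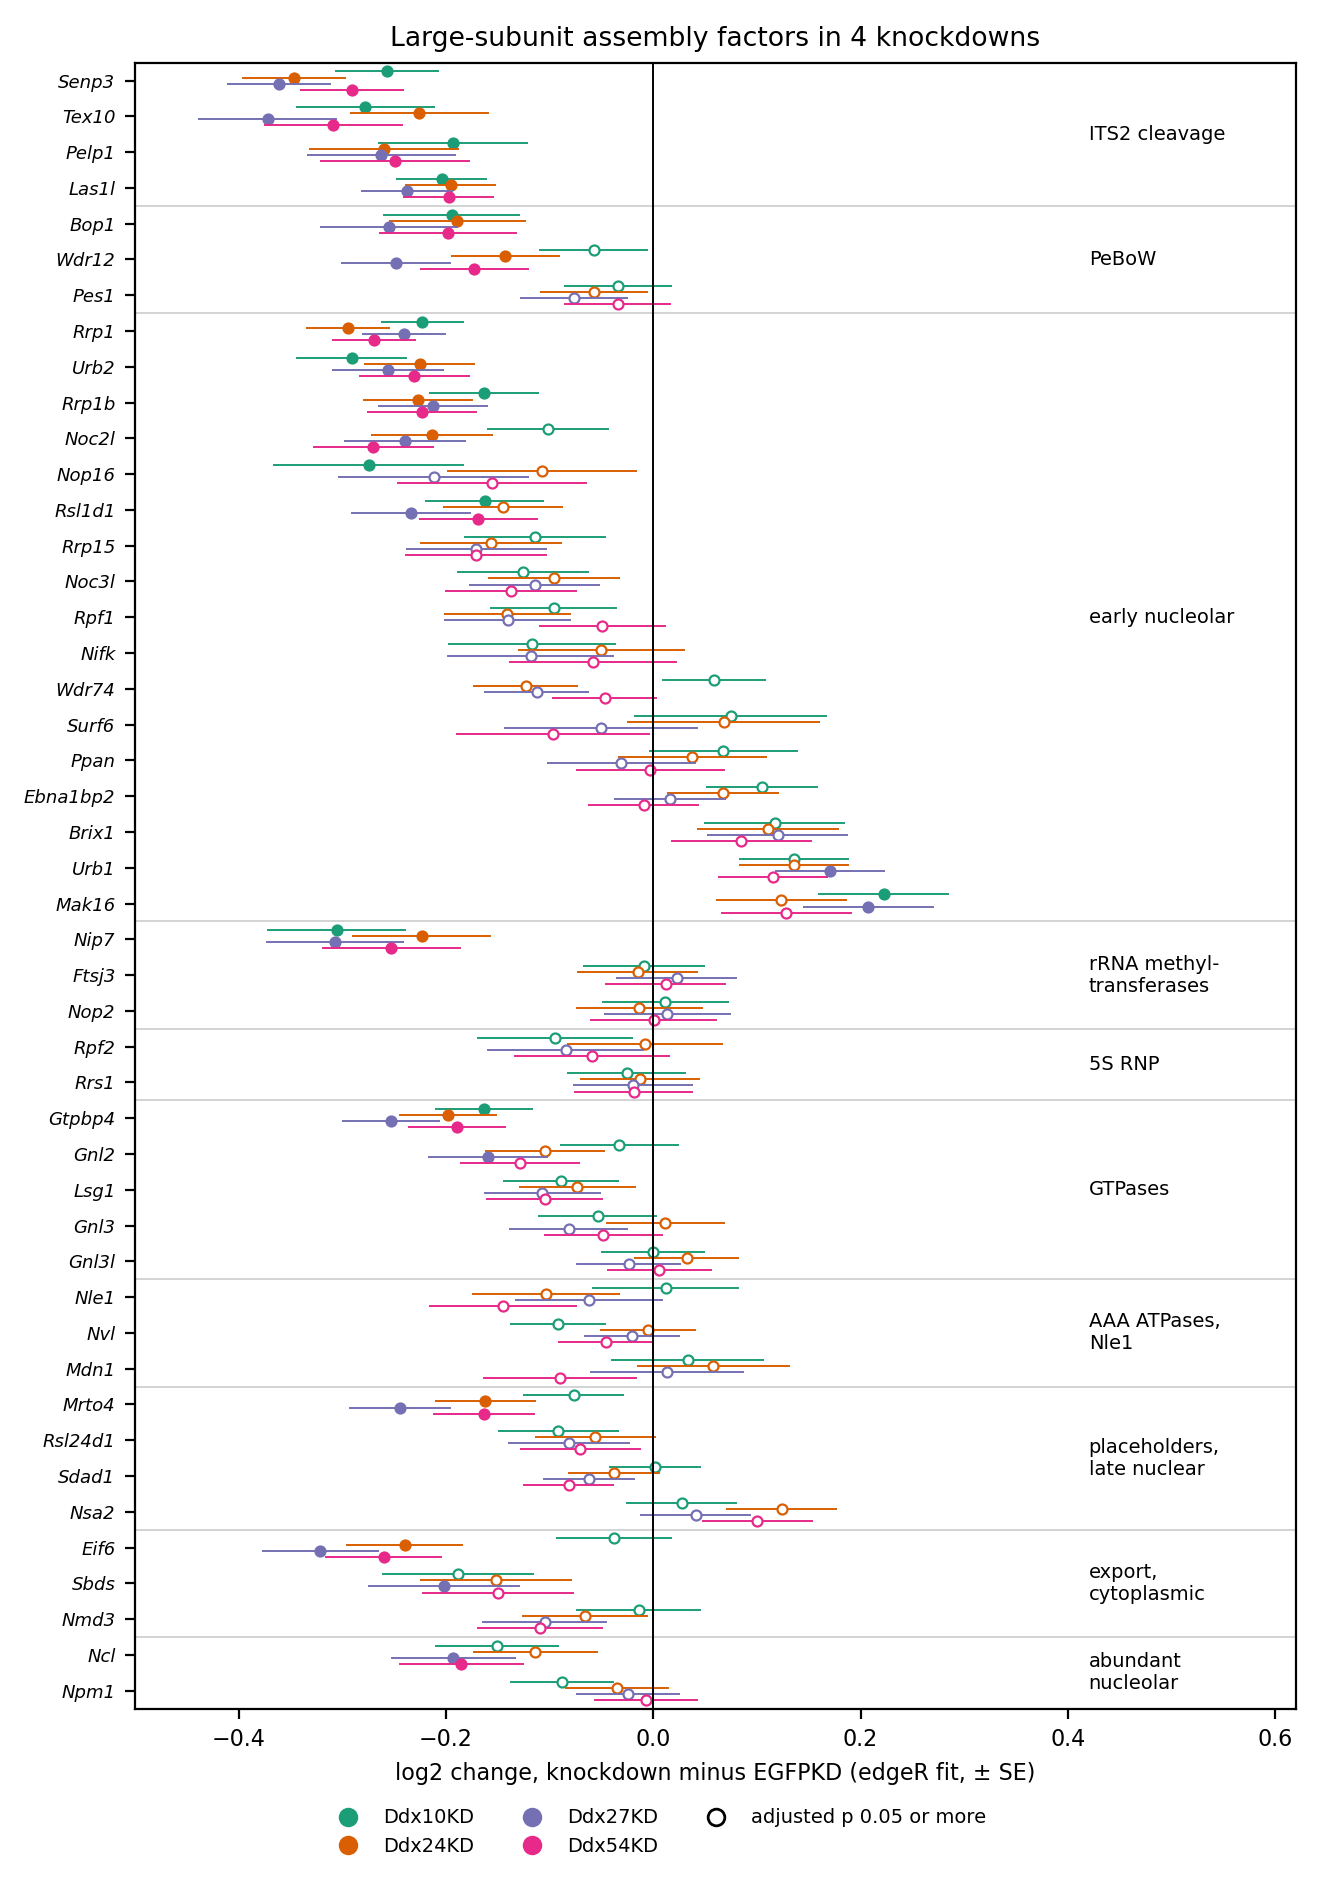
Log2 change of each of the 46 members in each knockdown against EGFPKD from the edgeR fit, with lines of ± 1 SE, grouped by role. Filled points had an adjusted p under 0.05. Most points lie left of 0, and the 4 ITS2 cleavage genes at the top have filled points in every knockdown.

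The machinery that cuts ITS2 had 4 genes among the members. Las1l encodes the endonuclease that makes the cut, Pelp1 and Tex10 encode scaffold proteins of the complex around it, and Senp3 encodes the SUMO protease that acts on Pelp1. By edgeR all 4 fell in each of the 4 knockdowns, with median log2 changes of -0.23 in Ddx10KD, -0.24 in Ddx24KD, -0.31 in Ddx27KD and -0.27 in Ddx54KD. The 4 comparisons share the EGFPKD libraries, so they are not independent of each other. Their summed level was 745 ± 29.1 TPM in Ddx10KD, 698 ± 29.5 TPM in Ddx24KD, 687 ± 19.0 TPM in Ddx27KD and 708 ± 20.5 TPM in Ddx54KD, against 844 ± 40.5 TPM in EGFPKD (SD, n = 3 each).

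The upstream sequences of these 4 genes are shown because the genes moved together, with those of the early factors Urb2 and Urb1, which moved in opposite directions in Ddx27KD. Each is the 250 bases before the RefSeq start site (GRCm38.p6), 5′ to 3′ on the gene's own strand. Capitals mark the ETS motif CCGGAAG, the E-box CACGTG, the CCAAT box and the GC box GGGCGG where they occur on either strand, so a motif on the other strand appears as its reverse complement.
Las1l (chrX:95956904-95957153, minus strand): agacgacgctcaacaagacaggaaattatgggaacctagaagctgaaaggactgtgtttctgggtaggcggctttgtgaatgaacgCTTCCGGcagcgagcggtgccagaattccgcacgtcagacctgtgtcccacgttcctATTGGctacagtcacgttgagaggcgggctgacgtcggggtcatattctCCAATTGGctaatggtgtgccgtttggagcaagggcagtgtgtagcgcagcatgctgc
Pelp1 (chr11:70410032-70410281, minus strand): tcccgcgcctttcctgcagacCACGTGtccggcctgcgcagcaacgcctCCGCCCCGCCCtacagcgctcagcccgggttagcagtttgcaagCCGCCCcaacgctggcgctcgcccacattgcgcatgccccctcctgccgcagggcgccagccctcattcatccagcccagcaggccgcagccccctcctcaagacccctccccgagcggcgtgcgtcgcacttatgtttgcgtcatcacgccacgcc
Senp3 (chr11:69682085-69682334, minus strand): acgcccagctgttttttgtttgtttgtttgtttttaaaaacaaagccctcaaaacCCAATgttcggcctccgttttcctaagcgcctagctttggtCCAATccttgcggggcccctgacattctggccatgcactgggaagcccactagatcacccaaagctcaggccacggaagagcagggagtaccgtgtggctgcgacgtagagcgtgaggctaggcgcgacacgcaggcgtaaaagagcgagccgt
Tex10 (chr4:48473464-48473713, minus strand): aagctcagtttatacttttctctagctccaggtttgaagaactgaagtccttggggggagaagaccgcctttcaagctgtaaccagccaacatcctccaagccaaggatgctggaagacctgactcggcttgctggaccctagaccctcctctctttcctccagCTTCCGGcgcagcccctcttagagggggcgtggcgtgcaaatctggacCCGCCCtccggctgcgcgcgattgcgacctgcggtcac
Urb2 (chr8:124021247-124021496, plus strand): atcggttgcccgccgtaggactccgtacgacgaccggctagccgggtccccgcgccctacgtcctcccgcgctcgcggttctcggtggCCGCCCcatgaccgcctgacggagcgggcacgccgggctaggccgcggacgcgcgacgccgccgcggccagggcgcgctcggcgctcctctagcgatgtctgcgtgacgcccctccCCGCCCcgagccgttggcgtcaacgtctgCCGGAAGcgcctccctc
Urb1 (chr16:90810414-90810663, minus strand): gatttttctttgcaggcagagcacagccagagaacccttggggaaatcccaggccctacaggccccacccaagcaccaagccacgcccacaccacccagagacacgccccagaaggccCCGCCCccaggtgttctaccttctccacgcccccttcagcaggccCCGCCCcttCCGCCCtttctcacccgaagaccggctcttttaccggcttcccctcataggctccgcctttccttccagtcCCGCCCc

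The ETS motif began at -164 in Las1l, -86 in Tex10, -17 in Urb2 relative to the start site, where -1 is the base before it. CCAAT began at -107, -58 and -55 in Las1l, -195 and -154 in Senp3. GENCODE M21 places the 5′ end of Las1l at 95956962, inside this window. The Las1l matches at -58 and -55 therefore lie within the gene as annotated there. The GC box began at -201, -196 and -157 in Pelp1, -38 in Tex10, -162 and -46 in Urb2, -132, -87, -78 and -7 in Urb1. The E-box began at -229 in Pelp1. Overlapping matches were counted separately. Of the 37 members with a matched RefSeq start, 13 held CCGGAAG on either strand, or 35.1%, beside 13.3% of the same windows of 10412 tested genes. Among the members lower in all 4 knockdowns, 9 had a matched start and 4 of these held CCGGAAG. Brix1, Surf6, Wdr74, Nop2, Rpf2, Lsg1, Nvl and Rsl24d1 held it too and passed in no knockdown without the block. Whether the motif goes with the fall was not tested. The E-box was in 3 of 37 members, or 8.11%, beside 8.46% of all windows, and GGGCGG in 22, or 59.5%, beside 59.9%. CCAAT was in 7 members, or 18.9%, beside 36.8%. A match describes letters in the window and is not a binding site.

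Levels within a gene are given below in CPM scaled by TMM factors, for replicates 1, 2 and 3 in that order, and log2 changes with their SE from the edgeR fit. All genes named with a position are protein-coding in GENCODE M21 (GRCm38), and the position spans the whole gene. Senp3 (chr11:69673115-69682084, minus strand) had the lowest adjusted p of the 4 genes in each knockdown. Its level was 389, 386 and 381 CPM in Ddx10KD, 372, 347 and 367 CPM in Ddx24KD, 362, 359 and 354 CPM in Ddx27KD, 389, 386 and 354 CPM in Ddx54KD, against 441, 451 and 489 CPM in EGFPKD. Every knockdown library was below every EGFPKD library. The log2 change was -0.26 ± 0.05 in Ddx10KD (adjusted p = 0.000946), -0.35 ± 0.05 in Ddx24KD (adjusted p = 8.64e-05), -0.36 ± 0.05 in Ddx27KD (adjusted p = 4.01e-05) and -0.29 ± 0.05 in Ddx54KD (adjusted p = 0.000481). Las1l (chrX:95935335-95956962, minus strand) was at 129, 124 and 123 CPM in Ddx10KD, 129.7, 125 and 123 CPM in Ddx24KD, 125, 118 and 125 CPM in Ddx27KD, 127, 128 and 122 CPM in Ddx54KD, against 145, 144 and 143 CPM in EGFPKD. Its libraries agreed closely within groups and the control libraries lay above all others. Against EGFPKD its log2 change was -0.20 ± 0.04 in Ddx10KD (adjusted p = 0.00194), -0.20 ± 0.04 in Ddx24KD (adjusted p = 0.00303), -0.24 ± 0.04 in Ddx27KD (adjusted p = 0.000519) and -0.20 ± 0.04 in Ddx54KD (adjusted p = 0.0034). The calls of Senp3 and Las1l kept an adjusted p under 0.05 under each of the 25 alternatives tried, in all 4 knockdowns.

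Tex10 (chr4:48430858-48473459, minus strand) was at 187, 177 and 172 CPM in Ddx10KD, 182, 207 and 167 CPM in Ddx24KD, 163, 167 and 172 CPM in Ddx27KD, 183, 179.8 and 162 CPM in Ddx54KD, against 221, 215 and 214 CPM in EGFPKD. Ddx54KD replicate 3 was lowest and Ddx24KD replicate 2 was the highest knockdown library, and all stayed below EGFPKD. The fitted log2 change of Tex10 was -0.28 ± 0.07 in Ddx10KD (adjusted p = 0.00451), -0.23 ± 0.07 in Ddx24KD (adjusted p = 0.0175), -0.37 ± 0.07 in Ddx27KD (adjusted p = 0.000454) and -0.31 ± 0.07 in Ddx54KD (adjusted p = 0.00305). In Ddx24KD this call was lost without Ddx24KD replicate 1 (adjusted p = 0.0528), without Ddx24KD replicate 3 (adjusted p = 0.0981) and without EGFPKD replicate 1 (adjusted p = 0.0561). Tex10 shares exon sequence with Invs on the opposite strand, at a mean of 3.25 TPM beside 118 TPM for Tex10, and since the sources used here do not say whether reads were counted by strand, reads in such overlaps cannot be assigned.

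Pelp1 (chr11:70392883-70410031, minus strand) was at 304, 289.8 and 334 CPM in Ddx10KD, 302, 266 and 317 CPM in Ddx24KD, 294, 287 and 303 CPM in Ddx27KD, 303, 279.7 and 309 CPM in Ddx54KD, against 338, 337 and 386 CPM in EGFPKD. EGFPKD replicate 3 was the highest library, and the highest Ddx10KD library came close to the lowest control library. This gave a log2 change of -0.19 ± 0.07 in Ddx10KD (adjusted p = 0.0496), -0.26 ± 0.07 in Ddx24KD (adjusted p = 0.0122), -0.26 ± 0.07 in Ddx27KD (adjusted p = 0.00958) and -0.25 ± 0.07 in Ddx54KD (adjusted p = 0.0177). Without EGFPKD replicate 3 the adjusted p was 0.231 in Ddx10KD, 0.0734 in Ddx24KD, 0.0608 in Ddx27KD and 0.0987 in Ddx54KD, so that none of the 4 calls held. The Pelp1 call in Ddx10KD was also lost without Ddx10KD replicate 1 (adjusted p = 0.118), Ddx10KD replicate 2 (adjusted p = 0.184), EGFPKD replicate 1 (adjusted p = 0.0538), Ddx24KD replicate 1 (adjusted p = 0.0561), Ddx27KD replicate 1, 2 or 3 (adjusted p = 0.0588, 0.0547 and 0.0555) or Ddx54KD replicate 1 or 3 (adjusted p = 0.0568 and 0.0525). The Pelp1 call in Ddx54KD was also lost without Ddx54KD replicate 2 (adjusted p = 0.0785).

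Further subunits of the same machinery are not members and were named after their values were seen. Nol9, the polynucleotide kinase that partners Las1l, had log2 changes of 0.06 ± 0.07, 0.02 ± 0.07, 0.04 ± 0.07 and -0.02 ± 0.07 (SE) in the order Ddx10KD, Ddx24KD, Ddx27KD and Ddx54KD, with adjusted p from 0.511 to 0.876. Wdr18, a partner of Pelp1 and Tex10, had log2 changes of -0.11 ± 0.06, -0.08 ± 0.06, -0.13 ± 0.06 and -0.11 ± 0.06 in the same order, with adjusted p from 0.0962 to 0.3. With the replicate block Wdr18 passed in Ddx10KD (adjusted p = 0.0258), Ddx27KD (adjusted p = 0.0116) and Ddx54KD (adjusted p = 0.032).

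The PeBoW complex, which folds the early precursor, has 3 genes among the members. Bop1 (chr15:76452989-76477277, minus strand), its scaffold, was at 188, 175 and 173 CPM in Ddx10KD, 181, 179 and 178 CPM in Ddx24KD, 185, 169 and 161 CPM in Ddx27KD, 194, 179 and 162 CPM in Ddx54KD, against 209.7, 194 and 209.8 CPM in EGFPKD. All knockdown libraries were below the control, although Ddx54KD replicate 1 was close to EGFPKD replicate 2. For Bop1 the log2 change was -0.19 ± 0.07 in Ddx10KD (adjusted p = 0.0322), -0.19 ± 0.07 in Ddx24KD (adjusted p = 0.0397), -0.25 ± 0.07 in Ddx27KD (adjusted p = 0.00652) and -0.20 ± 0.07 in Ddx54KD (adjusted p = 0.0361). The Ddx10KD, Ddx24KD and Ddx54KD calls were lost without EGFPKD replicate 1 (adjusted p = 0.101, 0.12 and 0.115) or EGFPKD replicate 3 (adjusted p = 0.0983, 0.119 and 0.109). They were also lost without Ddx10KD replicate 2 or 3 (adjusted p = 0.092 and 0.117), without Ddx24KD replicate 1, 2 or 3 (adjusted p = 0.0759, 0.069 and 0.0996), and without Ddx54KD replicate 2 or 3 (adjusted p = 0.0762 and 0.187). Bop1 overlaps Mroh1 on the opposite strand, at 13.2 TPM beside 152 TPM.

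Wdr12 (91.7 ± 2.23 CPM in EGFPKD) fell in Ddx24KD (log2 -0.14 ± 0.05, adjusted p = 0.0494), Ddx27KD (log2 -0.25 ± 0.05, adjusted p = 0.0016) and Ddx54KD (log2 -0.17 ± 0.05, adjusted p = 0.0228), while in Ddx10KD its log2 change was -0.06 ± 0.05 (adjusted p = 0.435). Pes1 (409 ± 21.3 CPM in EGFPKD), the third subunit gene, passed in no knockdown and had log2 changes from -0.08 to -0.03. Whether the 3 genes differed from each other in their change was not tested.

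Of the 17 early nucleolar factors, 5 fell and 1 rose in Ddx10KD, 4 fell in Ddx24KD, 5 fell and 2 rose in Ddx27KD and 5 fell in Ddx54KD. The shares of all genes that passed, given above, were 31%, 28.1%, 33.4% and 24.3% in the same order of knockdowns. With both directions pooled and without the block, the early factors passed about as often as genes in general. Most of their calls were lower, where 14.5%, 13.1%, 16.1% and 11.2% of all genes were lower. With the block 7 fell and 4 rose in Ddx10KD, 8 fell and 3 rose in Ddx24KD, 11 fell and 3 rose in Ddx27KD and 8 fell and 2 rose in Ddx54KD. In that fit 44%, 41.2%, 45.8% and 38.9% of all genes passed, and 21.3%, 19.9%, 22.6% and 18.8% were lower. Rrp1 and Rrp1b encode related homologues of yeast Rrp1, which acts in early large-subunit processing. Rrp1 (chr10:78400384-78413043, minus strand) was at 174, 179 and 172 CPM in Ddx10KD, 165, 168 and 167 CPM in Ddx24KD, 173, 172 and 174 CPM in Ddx27KD, 171, 171 and 167 CPM in Ddx54KD, against 202, 211 and 199.9 CPM in EGFPKD. The knockdown groups spanned a narrow band that the control libraries did not enter. The log2 change of Rrp1 was -0.22 ± 0.04 in Ddx10KD (adjusted p = 0.000518), -0.29 ± 0.04 in Ddx24KD (adjusted p = 5.36e-05), -0.24 ± 0.04 in Ddx27KD (adjusted p = 0.000225) and -0.27 ± 0.04 in Ddx54KD (adjusted p = 0.000134), and these calls held under all 25 alternatives.

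Rrp1b (chr17:32036100-32062865, plus strand) was at 201, 196 and 182 CPM in Ddx10KD, 184, 191 and 179 CPM in Ddx24KD, 190.1, 189 and 181 CPM in Ddx27KD, 196, 185 and 175 CPM in Ddx54KD, against 224, 214 and 210.0 CPM in EGFPKD. Again no knockdown library reached the control, though Ddx10KD replicate 1 came nearest. Its log2 change was -0.16 ± 0.05 in Ddx10KD (adjusted p = 0.0258), -0.23 ± 0.05 in Ddx24KD (adjusted p = 0.00412), -0.21 ± 0.05 in Ddx27KD (adjusted p = 0.005) and -0.22 ± 0.05 in Ddx54KD (adjusted p = 0.00546). The Ddx10KD call was lost without Ddx10KD replicate 3 (adjusted p = 0.131) or EGFPKD replicate 1 (adjusted p = 0.102), and Rrp1b overlaps Hsf2bp on the opposite strand, at 38.7 TPM beside 82.6 TPM.

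Urb1 and Urb2, whose yeast counterparts are early precursor components, went opposite ways in Ddx27KD. Urb2 (chr8:124021508-124048505, plus strand) was at 173, 152 and 171 CPM in Ddx10KD, 178, 168 and 173 CPM in Ddx24KD, 173, 163 and 172 CPM in Ddx27KD, 178, 168 and 172 CPM in Ddx54KD, against 203, 196 and 209 CPM in EGFPKD. All 12 knockdown libraries were below the control, with Ddx10KD replicate 2 the lowest. The fitted log2 change of Urb2 was -0.29 ± 0.05 in Ddx10KD (adjusted p = 0.000623), -0.23 ± 0.05 in Ddx24KD (adjusted p = 0.00462), -0.26 ± 0.05 in Ddx27KD (adjusted p = 0.00142) and -0.23 ± 0.05 in Ddx54KD (adjusted p = 0.00468), and these calls held under all 25 alternatives.

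Urb1 (chr16:90751527-90810413, minus strand) was at 196, 189 and 203 CPM in Ddx10KD, 202, 183 and 203 CPM in Ddx24KD, 208, 193 and 201 CPM in Ddx27KD, 202, 186 and 192 CPM in Ddx54KD, against 180.4, 174 and 181 CPM in EGFPKD. Every knockdown library was above the control libraries, by small margins. For Urb1 the log2 change was 0.14 ± 0.05 in Ddx10KD (adjusted p = 0.0581), 0.14 ± 0.05 in Ddx24KD (adjusted p = 0.0632), 0.17 ± 0.05 in Ddx27KD (adjusted p = 0.0189) and 0.12 ± 0.05 in Ddx54KD (adjusted p = 0.119), so the test was passed in Ddx27KD alone. With the replicate block Urb1 rose in all 4 knockdowns, with an adjusted p of 0.00332 in Ddx10KD, 0.00393 in Ddx24KD, 0.000473 in Ddx27KD and 0.0121 in Ddx54KD. The Ddx27KD call was lost without Ddx27KD replicate 1 (adjusted p = 0.0891) or EGFPKD replicate 2 (adjusted p = 0.0832).

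Mak16 (chr8:31159463-31168764, minus strand), an early factor first known from yeast, was the other member that rose. It was at 187, 197 and 169.7 CPM in Ddx10KD, 177, 172 and 167 CPM in Ddx24KD, 183, 193 and 172 CPM in Ddx27KD, 180.0, 177 and 161 CPM in Ddx54KD, against 164, 160.0 and 151 CPM in EGFPKD. The Ddx10KD, Ddx24KD and Ddx27KD libraries were all above the control, and Ddx54KD overlapped it. Against EGFPKD its log2 change was 0.22 ± 0.06 in Ddx10KD (adjusted p = 0.0125), 0.12 ± 0.06 in Ddx24KD (adjusted p = 0.155), 0.21 ± 0.06 in Ddx27KD (adjusted p = 0.017) and 0.13 ± 0.06 in Ddx54KD (adjusted p = 0.148). With the block Mak16 rose in Ddx24KD (adjusted p = 0.0114) and Ddx54KD (adjusted p = 0.0106) as well. The Ddx10KD call was lost without Ddx10KD replicate 2 (adjusted p = 0.0707) or EGFPKD replicate 3 (adjusted p = 0.0625), and the Ddx27KD call without Ddx27KD replicate 2 (adjusted p = 0.0941) or EGFPKD replicate 3 (adjusted p = 0.0801). Mak16 overlaps Tti2 on the opposite strand, at 12.1 TPM beside 196 TPM.

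Rsl1d1 was at 335, 345 and 308 CPM in Ddx10KD, 329, 349.5 and 321 CPM in Ddx24KD, 311, 328 and 302 CPM in Ddx27KD, 346, 334 and 304 CPM in Ddx54KD, against 373, 369 and 363 CPM in EGFPKD. The control libraries were above all others. This gave a log2 change of -0.16 ± 0.06 in Ddx10KD (adjusted p = 0.0384), -0.14 ± 0.06 in Ddx24KD (adjusted p = 0.0674), -0.23 ± 0.06 in Ddx27KD (adjusted p = 0.00455) and -0.17 ± 0.06 in Ddx54KD (adjusted p = 0.039), and with the block it fell in Ddx24KD too (adjusted p = 0.00342). The Rsl1d1 calls in Ddx10KD and Ddx54KD were lost without EGFPKD replicate 1 (adjusted p = 0.101 and 0.107), EGFPKD replicate 2 (adjusted p = 0.0798 and 0.0823) or EGFPKD replicate 3 (adjusted p = 0.0648 and 0.0679). They were also lost without Ddx10KD replicate 1 or 3 (adjusted p = 0.0602 and 0.181) and without Ddx54KD replicate 2 or 3 (adjusted p = 0.0624 and 0.192).

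Noc2l (241 ± 15.5 CPM in EGFPKD), for a partner of Noc3l in the precursor, fell in Ddx24KD (log2 -0.21 ± 0.06, adjusted p = 0.0113), Ddx27KD (log2 -0.24 ± 0.06, adjusted p = 0.00442) and Ddx54KD (log2 -0.27 ± 0.06, adjusted p = 0.00305). In Ddx10KD the Noc2l change was -0.10 ± 0.06 (adjusted p = 0.199) without the block, and it passed with it (adjusted p = 0.0353). Nop16 (79.7 ± 6.38 CPM in EGFPKD), another early factor, fell in Ddx10KD (log2 -0.27 ± 0.09, adjusted p = 0.0307), and with the block also in Ddx27KD (adjusted p = 0.00404) and Ddx54KD (adjusted p = 0.0285).

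Noc3l, among the lowest of the set, was at 114, 101 and 93.8 CPM in Ddx10KD, 110.1, 103 and 102 CPM in Ddx24KD, 103, 105 and 104 CPM in Ddx27KD, 109, 99.8 and 97.7 CPM in Ddx54KD, against 115, 113 and 109 CPM in EGFPKD. The Ddx10KD and Ddx24KD libraries overlapped the control, and the Ddx27KD and Ddx54KD libraries lay just below it. Its log2 change was -0.13 ± 0.06 in Ddx10KD (adjusted p = 0.142), -0.10 ± 0.06 in Ddx24KD (adjusted p = 0.279), -0.11 ± 0.06 in Ddx27KD (adjusted p = 0.175) and -0.14 ± 0.06 in Ddx54KD (adjusted p = 0.122). With the block it fell in Ddx10KD (adjusted p = 0.0244), Ddx27KD (adjusted p = 0.0423) and Ddx54KD (adjusted p = 0.018). Surf6, at the bottom of the order, was at 64.7, 56.6 and 59.5 CPM in Ddx10KD, 65.9, 56.3 and 57.8 CPM in Ddx24KD, 61.8, 52.1 and 52.0 CPM in Ddx27KD, 59.4, 49.0 and 52.2 CPM in Ddx54KD, against 63.1, 52.7 and 55.9 CPM in EGFPKD. Its groups all overlapped, and replicate 1 was the highest library in every group. The Surf6 log2 change was 0.07 ± 0.09 in Ddx10KD (adjusted p = 0.585), 0.07 ± 0.09 in Ddx24KD (adjusted p = 0.63), -0.05 ± 0.09 in Ddx27KD (adjusted p = 0.715) and -0.10 ± 0.09 in Ddx54KD (adjusted p = 0.49). The remaining early factors, among them Ebna1bp2, Brix1, Nifk, Ppan, Rpf1, Rrp15 and Wdr74, passed in no comparison with EGFPKD without the block. With the block Rrp15 fell in Ddx24KD, Ddx27KD and Ddx54KD (adjusted p = 0.0194, 0.0103 and 0.0126), on log2 changes of -0.16, -0.17 and -0.17. Rpf1 (adjusted p = 0.0146 and 0.0133) and Wdr74 (adjusted p = 0.0152 and 0.0219) fell with the block in Ddx24KD and Ddx27KD, and Nifk in Ddx27KD (adjusted p = 0.0441). Ebna1bp2 rose with the block in Ddx10KD (log2 0.10, adjusted p = 0.0449), and Brix1 rose with it in Ddx10KD, Ddx24KD and Ddx27KD (adjusted p = 0.0135, 0.018 and 0.0116), on log2 changes of 0.12, 0.11 and 0.12.

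Among the ribosomal RNA methyltransferase genes, Nop2 (216 ± 7.89 CPM in EGFPKD) and Ftsj3 (384 ± 13.7 CPM in EGFPKD) had log2 changes from -0.02 to 0.02 in the 4 knockdowns and did not pass. Nip7 (chr8:107056877-107060931, plus strand), whose yeast product binds Nop2 in the early precursor, was at 103, 97.9 and 91.9 CPM in Ddx10KD, 106, 110.0 and 93.6 CPM in Ddx24KD, 102, 95.3 and 94.6 CPM in Ddx27KD, 105, 104 and 94.2 CPM in Ddx54KD, against 126, 116 and 119 CPM in EGFPKD. All knockdown libraries were below EGFPKD, and replicate 3 was the lowest in every knockdown group. Against EGFPKD its log2 change was -0.31 ± 0.07 in Ddx10KD (adjusted p = 0.00235), -0.22 ± 0.07 in Ddx24KD (adjusted p = 0.0183), -0.31 ± 0.07 in Ddx27KD (adjusted p = 0.00196) and -0.25 ± 0.07 in Ddx54KD (adjusted p = 0.0106). The Ddx24KD call was lost without Ddx24KD replicate 3 (adjusted p = 0.103) or EGFPKD replicate 1 (adjusted p = 0.0786), and the Ddx54KD call without Ddx54KD replicate 3 (adjusted p = 0.0653) or EGFPKD replicate 1 (adjusted p = 0.0524).

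**Figure D4:**
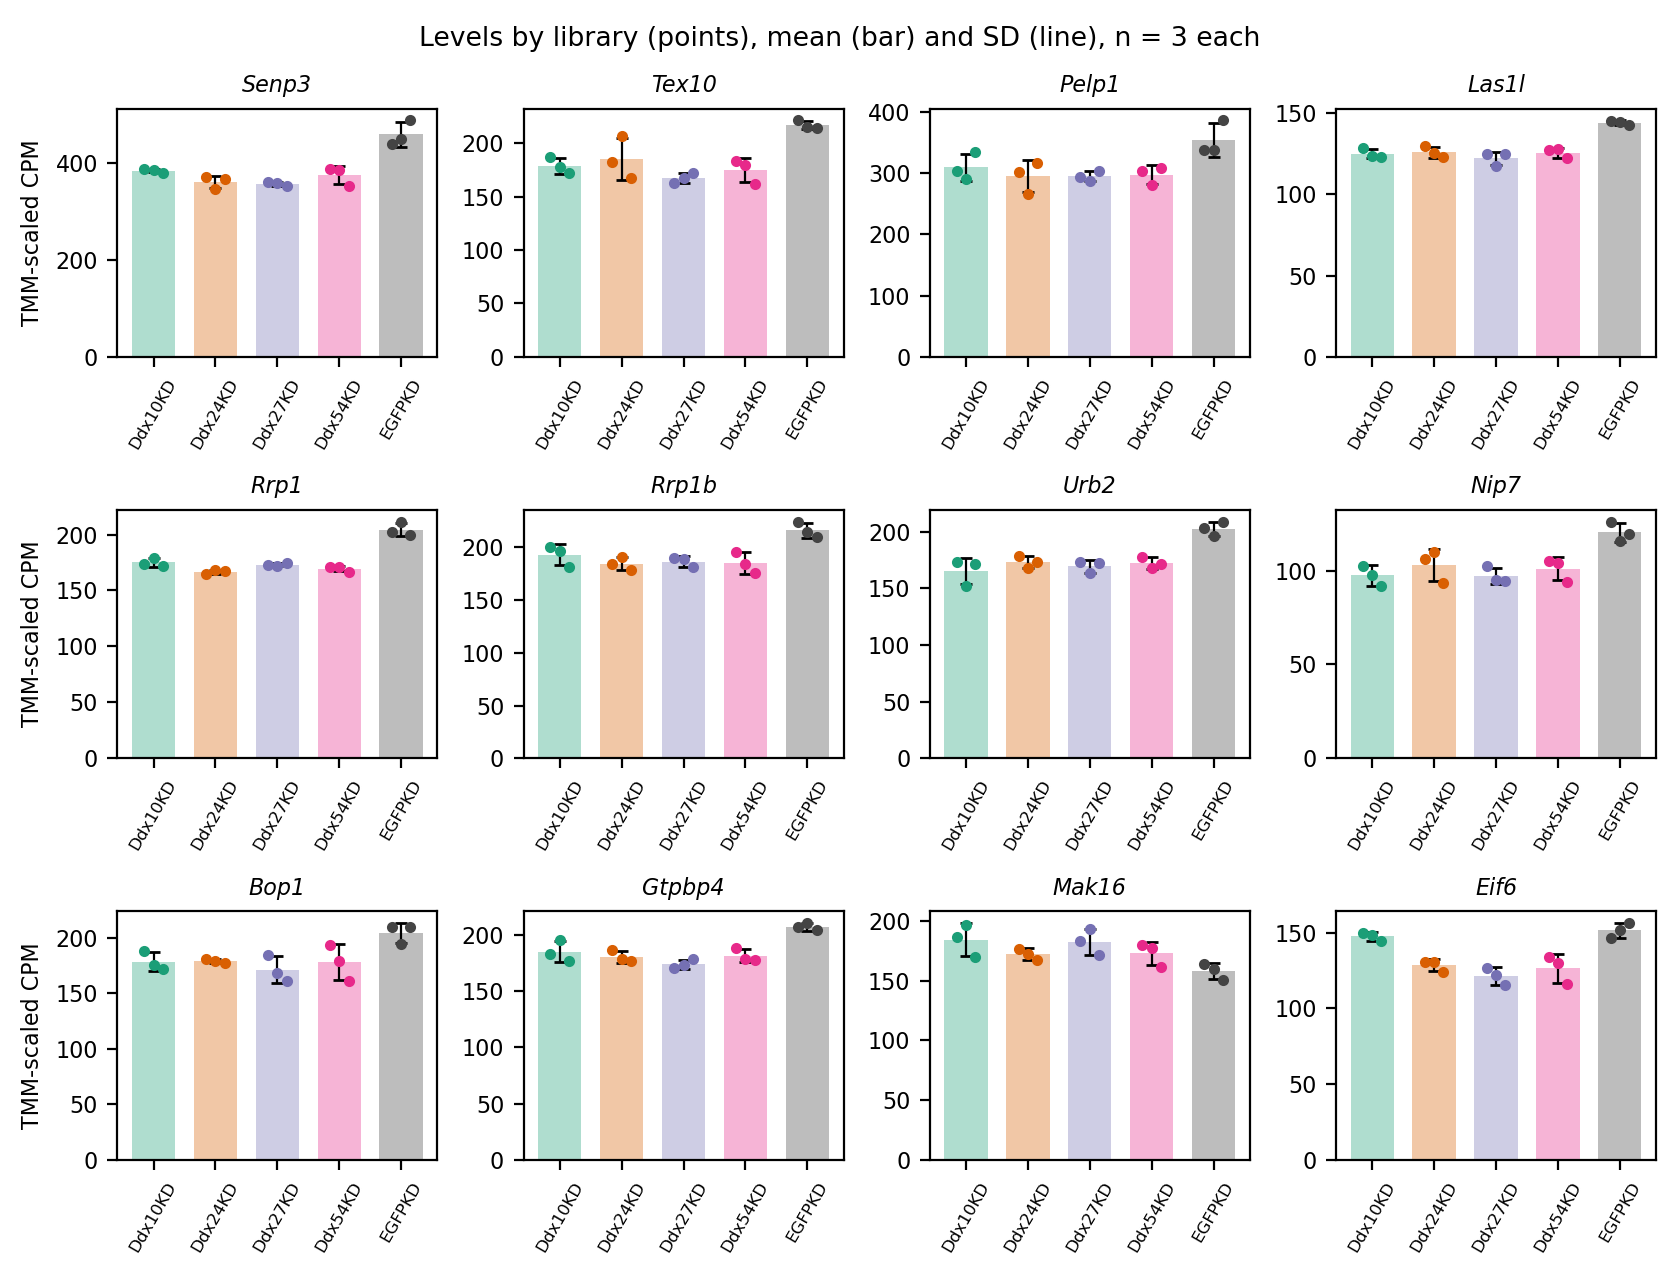
TMM-scaled CPM of 12 members in each library (points), with the group mean (bar) and SD (line), n = 3 each and all axes from 0. The 10 members that fell in every knockdown sit below EGFPKD in all 12 knockdown libraries, Mak16 sits above it in Ddx10KD, Ddx24KD and Ddx27KD, and Eif6 in Ddx10KD overlaps the control.

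Rpf2 (71.3 ± 4.71 CPM in EGFPKD) and Rrs1 (102 ± 2.82 CPM in EGFPKD), which load the 5S RNA with its proteins onto the precursor, passed in 0 comparisons, with and without the block. The log2 changes of Rpf2 lay from -0.09 to -0.01 and those of Rrs1 from -0.03 to -0.01. Of the genes for the removal machinery, the giant ATPase gene Mdn1 (868 ± 53.2 CPM in EGFPKD), Nvl and the adaptor gene Nle1 also passed in no comparison without the block. With it, Mdn1 fell in Ddx54KD (log2 -0.09, adjusted p = 0.038), as did Nle1 (log2 -0.15, adjusted p = 0.042).

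Of the 5 GTPase genes, Gtpbp4 (chr13:8966331-8996083, minus strand), the orthologue of yeast Nog1, fell in all 4 knockdowns. It was at 184, 196 and 177 CPM in Ddx10KD, 187, 179 and 177 CPM in Ddx24KD, 171, 173 and 179 CPM in Ddx27KD, 189, 179 and 178 CPM in Ddx54KD, against 207, 211 and 204 CPM in EGFPKD. The control libraries lay close together and above every knockdown library. The log2 change of Gtpbp4 was -0.16 ± 0.05 in Ddx10KD (adjusted p = 0.0133), -0.20 ± 0.05 in Ddx24KD (adjusted p = 0.00465), -0.25 ± 0.05 in Ddx27KD (adjusted p = 0.000571) and -0.19 ± 0.05 in Ddx54KD (adjusted p = 0.00711), and the Ddx10KD call was lost without Ddx10KD replicate 3 (adjusted p = 0.0745). Gnl2 (127 ± 2.10 CPM in EGFPKD), the orthologue of yeast Nog2, fell in Ddx27KD (log2 -0.16 ± 0.06, adjusted p = 0.041), and with the block in Ddx24KD (adjusted p = 0.0434) and Ddx54KD (adjusted p = 0.0176).

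Gnl3, for nucleostemin, a GTPase long used as a marker of proliferating stem cells, was at 237, 237 and 220.4 CPM in Ddx10KD, 247, 249.9 and 229.5 CPM in Ddx24KD, 229, 234 and 219 CPM in Ddx27KD, 248, 235 and 215 CPM in Ddx54KD, against 249, 239 and 233 CPM in EGFPKD. Its relative Gnl3l was at 189, 202 and 203 CPM in Ddx10KD, 197, 205 and 205 CPM in Ddx24KD, 189, 193 and 202 CPM in Ddx27KD, 199, 191 and 207 CPM in Ddx54KD, against 192, 193 and 209 CPM in EGFPKD. For both genes every knockdown group overlapped the control. The log2 changes of Gnl3 were -0.05 ± 0.06 in Ddx10KD (adjusted p = 0.512), 0.01 ± 0.06 in Ddx24KD (adjusted p = 0.901), -0.08 ± 0.06 in Ddx27KD (adjusted p = 0.289) and -0.05 ± 0.06 in Ddx54KD (adjusted p = 0.584). Those of Gnl3l were 0.00 ± 0.05 in Ddx10KD (adjusted p = 0.998), 0.03 ± 0.05 in Ddx24KD (adjusted p = 0.671), -0.02 ± 0.05 in Ddx27KD (adjusted p = 0.75) and 0.01 ± 0.05 in Ddx54KD (adjusted p = 0.947). Lsg1, the cytoplasmic GTPase gene, passed in no comparison without the block and fell with it in Ddx27KD (log2 -0.11, adjusted p = 0.0476). Gnl3 overlaps Pbrm1 on the opposite strand, at 44.6 TPM beside 254 TPM.

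Among the placeholder and late nuclear factors, Mrto4 (99.4 ± 3.04 CPM in EGFPKD), which holds the place of a stalk protein, fell in Ddx24KD (log2 -0.16 ± 0.05, adjusted p = 0.0188), Ddx27KD (log2 -0.24 ± 0.05, adjusted p = 0.00102) and Ddx54KD (log2 -0.16 ± 0.05, adjusted p = 0.0205). Its change in Ddx10KD was -0.08 ± 0.05 (adjusted p = 0.245). Rsl24d1, Sdad1 and Nsa2 did not pass, and Nsa2 passed as higher with the block in Ddx24KD (log2 0.12, adjusted p = 0.0128) and Ddx54KD (log2 0.10, adjusted p = 0.0417). Nsa2, at 138 TPM, overlaps Fam169a at 111 TPM and Gfm2 at 44.5 TPM on the opposite strand, so that its reads cannot be told from theirs in the overlaps.

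Of the 3 export and cytoplasmic genes, Eif6 (chr2:155819832-155826925, minus strand), which keeps the new subunit from joining the small one too early, fell in 3 knockdowns. It was at 150.0, 148 and 145 CPM in Ddx10KD, 131, 131 and 124 CPM in Ddx24KD, 127, 122 and 115 CPM in Ddx27KD, 134, 129.9 and 116 CPM in Ddx54KD, against 147, 152 and 156 CPM in EGFPKD. The Ddx24KD, Ddx27KD and Ddx54KD libraries were all below the control, while the Ddx10KD libraries overlapped it. This gave a log2 change of -0.04 ± 0.06 in Ddx10KD (adjusted p = 0.648), -0.24 ± 0.06 in Ddx24KD (adjusted p = 0.00437), -0.32 ± 0.06 in Ddx27KD (adjusted p = 0.000363) and -0.26 ± 0.06 in Ddx54KD (adjusted p = 0.00301).

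Sbds (60.8 ± 1.85 CPM in EGFPKD), which acts in the release of Eif6, fell in Ddx27KD (log2 -0.20 ± 0.07, adjusted p = 0.0415). With the block it fell in all 4 knockdowns, with an adjusted p of 0.00157 in Ddx10KD, 0.00888 in Ddx24KD, 0.000829 in Ddx27KD and 0.00982 in Ddx54KD. Nmd3 (134 ± 5.74 CPM in EGFPKD), the export adaptor, passed in Ddx27KD (log2 -0.10, adjusted p = 0.0336) and Ddx54KD (log2 -0.11, adjusted p = 0.0304) with the block and in none without it.

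Of the abundant nucleolar pair, Ncl was at 2580.1, 2668 and 2327 CPM in Ddx10KD, 2646, 2708 and 2419 CPM in Ddx24KD, 2448, 2506 and 2404 CPM in Ddx27KD, 2602, 2467 and 2329 CPM in Ddx54KD, against 2879, 2866 and 2666 CPM in EGFPKD. The Ddx27KD and Ddx54KD libraries were below the control, and those of Ddx10KD and Ddx24KD overlapped it. Its log2 change was -0.15 ± 0.06 in Ddx10KD (adjusted p = 0.0638), -0.11 ± 0.06 in Ddx24KD (adjusted p = 0.167), -0.19 ± 0.06 in Ddx27KD (adjusted p = 0.0191) and -0.19 ± 0.06 in Ddx54KD (adjusted p = 0.0314). With the block Ncl fell also in Ddx10KD (adjusted p = 0.0011) and Ddx24KD (adjusted p = 0.00974). The Ncl calls in Ddx27KD and Ddx54KD were lost without EGFPKD replicate 1 (adjusted p = 0.0713 and 0.105) or EGFPKD replicate 2 (adjusted p = 0.0615 and 0.0885), without Ddx27KD replicate 1 or 3 (adjusted p = 0.0502 and 0.0622) and without Ddx54KD replicate 2 or 3 (adjusted p = 0.0693 and 0.144). Npm1 was at 4594, 4726 and 4201 CPM in Ddx10KD, 4858, 4484 and 4689 CPM in Ddx24KD, 4718, 4680.5 and 4738 CPM in Ddx27KD, 4903, 4705 and 4702 CPM in Ddx54KD, against 5006, 4626 and 4743 CPM in EGFPKD. Each knockdown group overlapped EGFPKD. The fitted log2 change of Npm1 was -0.09 ± 0.05 in Ddx10KD (adjusted p = 0.189), -0.04 ± 0.05 in Ddx24KD (adjusted p = 0.641), -0.02 ± 0.05 in Ddx27KD (adjusted p = 0.744) and -0.01 ± 0.05 in Ddx54KD (adjusted p = 0.94).

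Over the 46 members, 25 passed in none of the 4 comparisons with EGFPKD, 19 fell in at least 1 and 2 rose in at least 1. The 25 were 54.3% of the members, beside 56.1% of all tested genes that passed in none. Without the block and with both directions pooled, the share that passed was thus near that of genes in general. With the block 13 of the 46 members passed in none, beside 38.7% of all genes. By direction without the block, 19 of the 46 members fell in at least 1 comparison, beside 21.1% of all tested genes. In the other direction 2 of the 46 rose in at least 1, beside 22.7%. Lower in all 4 knockdowns were 10 members, or 21.7%, beside 7.31% of all genes, and with the block 14 members, or 30.4%, beside 12.5%. Higher in all 4 were 0 members, beside 9.32% of all genes, and with the block Mak16 and Urb1, beside 13.5%. The 4 comparisons share their control. Direct comparisons between knockdowns, in which the control enters only through the shared estimate of the spread, asked whether the members responded differently. Without the block, by edgeR's quasi-likelihood test with Benjamini-Hochberg adjustment over all genes, 1 member passed in the 6 pairs. Eif6 was higher in Ddx10KD than in Ddx27KD by 0.28 ± 0.06 log2 units (adjusted p = 0.0484), where 0.223% of all genes passed. Its Ddx10KD libraries, at 145 to 150.0 CPM, were all above the Ddx27KD libraries, at 115 to 127 CPM. The difference in Eif6 was 0.20 ± 0.06 between Ddx10KD and Ddx24KD (adjusted p = 0.148) and 0.22 ± 0.06 between Ddx10KD and Ddx54KD (adjusted p = 0.0583).

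The Eif6 call in Ddx10KD against Ddx27KD depended on many single libraries. Its adjusted p was 0.164, 0.19 and 0.126 without Ddx10KD replicate 1, 2 and 3, and 0.0871, 0.191 and 0.148 without Ddx27KD replicate 1, 2 and 3. It was 0.0826 and 0.0519 without Ddx24KD replicate 1 and 3, 0.0741 without Ddx54KD replicate 2, and 0.0832, 0.0854 and 0.0726 without EGFPKD replicate 1, 2 and 3.

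In the other 5 pairs 0 members passed by edgeR, and 0 by limma-voom. The count by DESeq2 was 1 for Ddx10KD against Ddx54KD and 0 for the rest. At an unadjusted p under 0.05, 2 members differed between Ddx10KD and Ddx24KD, 6 between Ddx10KD and Ddx27KD, 6 between Ddx10KD and Ddx54KD, 1 between Ddx24KD and Ddx27KD, 0 between Ddx24KD and Ddx54KD and 0 between Ddx27KD and Ddx54KD. Of all genes, 10.9%, 11.4%, 14.7%, 4.14%, 6.47% and 7.75% had such a p in the same order of pairs. At the adjusted threshold 0.412% of all genes passed between Ddx10KD and Ddx24KD, 1.43% between Ddx10KD and Ddx54KD, 0.0209% between Ddx24KD and Ddx27KD, 0.0558% between Ddx24KD and Ddx54KD and 0.014% between Ddx27KD and Ddx54KD.

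With the replicate block more pairs of values separated, each with the first-named knockdown higher. Wdr74 and Eif6 differed between Ddx10KD and Ddx24KD (adjusted p = 0.0108 and 0.0123), where 5.41% of all genes passed. Wdr12, Noc2l, Wdr74, Mrto4 and Eif6 differed between Ddx10KD and Ddx27KD (adjusted p from 0.00143 to 0.0414), where 5.34% passed. Noc2l, Surf6, Mdn1 and Eif6 differed between Ddx10KD and Ddx54KD (adjusted p from 0.0033 to 0.0252), where 10.6% passed. Surf6 and Mdn1 differed between Ddx24KD and Ddx54KD (adjusted p = 0.0435 and 0.023), where 1.74% passed.

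A further 31 genes of large-subunit assembly, listed by role with earlier results of these data known, were counted in the same fit. In Ddx10KD 8 of the 31 fell and 3 rose, in Ddx24KD 9 fell and 3 rose, in Ddx27KD 10 fell and 4 rose, and in Ddx54KD 8 fell and 4 rose. Of all tested genes 14.5% fell and 16.5% rose in Ddx10KD, 13.1% and 15% in Ddx24KD, 16.1% and 17.3% in Ddx27KD, and 11.2% and 13.1% in Ddx54KD. Their median log2 change was -0.08 in Ddx10KD, -0.07 in Ddx24KD, -0.11 in Ddx27KD and -0.11 in Ddx54KD. With the block 12 fell and 3 rose in Ddx10KD, 13 and 4 in Ddx24KD, 15 and 5 in Ddx27KD, and 15 and 4 in Ddx54KD. In that fit 21.3% of all genes fell and 22.8% rose in Ddx10KD, and 19.9% and 21.3% in Ddx24KD. The blocked shares of all genes were 22.6% and 23.3% in Ddx27KD, and 18.8% and 20% in Ddx54KD. The count that passed in Ddx24KD was 7 without Ddx24KD replicate 3 and 6 without EGFPKD replicate 1, and that in Ddx54KD was 7 without Ddx54KD replicate 3.

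Heatr3, which aids the import and 5S assembly of ribosomal proteins, had log2 changes of -0.30 ± 0.06 in Ddx10KD (adjusted p = 0.00142), -0.35 ± 0.06 in Ddx24KD (adjusted p = 0.00049), -0.46 ± 0.06 in Ddx27KD (adjusted p = 3.38e-05) and -0.35 ± 0.06 in Ddx54KD (adjusted p = 0.00072). Zfp622, a late cytoplasmic factor, had log2 changes of -0.22 ± 0.05 in Ddx10KD (adjusted p = 0.00576), -0.32 ± 0.05 in Ddx24KD (adjusted p = 0.000331), -0.34 ± 0.05 in Ddx27KD (adjusted p = 0.00016) and -0.30 ± 0.05 in Ddx54KD (adjusted p = 0.00072). Pdcd11, the orthologue of yeast Rrp5, had log2 changes of -0.19 ± 0.05 in Ddx10KD (adjusted p = 0.00464), -0.15 ± 0.05 in Ddx24KD (adjusted p = 0.0218), -0.18 ± 0.05 in Ddx27KD (adjusted p = 0.00532) and -0.19 ± 0.05 in Ddx54KD (adjusted p = 0.00714). Ccdc86, a nucleolar protein, had log2 changes of 0.36 ± 0.07 in Ddx10KD (adjusted p = 0.00106), 0.41 ± 0.07 in Ddx24KD (adjusted p = 0.000447), 0.42 ± 0.07 in Ddx27KD (adjusted p = 0.000305) and 0.28 ± 0.07 in Ddx54KD (adjusted p = 0.00801). Gltscr2, the file's symbol for the Nop53 gene, had log2 changes of -0.04 ± 0.06 in Ddx10KD (adjusted p = 0.587), 0.21 ± 0.06 in Ddx24KD (adjusted p = 0.00892), 0.24 ± 0.06 in Ddx27KD (adjusted p = 0.00346) and 0.26 ± 0.06 in Ddx54KD (adjusted p = 0.00262). Spata5, the orthologue of the yeast ATPase Drg1, had log2 changes of 0.30 ± 0.06 in Ddx10KD (adjusted p = 0.00101), 0.15 ± 0.06 in Ddx24KD (adjusted p = 0.0667), 0.15 ± 0.06 in Ddx27KD (adjusted p = 0.0489) and 0.18 ± 0.06 in Ddx54KD (adjusted p = 0.0345). Spata5 passed with the block in Ddx24KD as well (adjusted p = 0.0239).

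The authors' deposited tables give an EBSeq posterior probability and a ratio per gene. At a probability of at least 0.95, the authors' deposited tables hold 10 members lower and 1 higher in Ddx10KD, 13 lower and 0 higher in Ddx24KD, 19 lower and 2 higher in Ddx27KD, and 14 lower and 0 higher in Ddx54KD. Of all genes in the authors' deposited tables, 17.1% reached that probability for Ddx10KD, 12.4% for Ddx24KD, 18.3% for Ddx27KD and 13.1% for Ddx54KD. These shares pool both directions and are not limited to the genes tested by edgeR. The lower members alone therefore have no like share beside them. The members lower both there and by edgeR numbered 10 in Ddx10KD, out of 10 in the authors' deposited table and 12 by edgeR. They numbered 10 in Ddx24KD, out of 13 and 14, 17 in Ddx27KD, out of 19 and 18, and 12 in Ddx54KD, out of 14 and 16. The higher member in Ddx10KD was a different gene by each method: Urb1 had a probability of 0.992 in the authors' deposited table and Mak16, the one that passed by edgeR, had 0.787. In Ddx27KD both were higher by both methods. Of the ITS2 cleavage genes, Las1l and Senp3 reached the threshold in all 4 of the authors' deposited tables. Pelp1 had probabilities of 0.104 in Ddx10KD, 0.0167 in Ddx24KD, 0.975 in Ddx27KD and 0.812 in Ddx54KD in the authors' deposited tables, and so reached it in Ddx27KD alone. Tex10 was below it in the authors' deposited table of Ddx24KD, at 0.835, and reached it in the other 3. The authors' ratios followed from the deposited libraries within a median of 0.0051, 0.0039 and 0.0068 log2 units for Ddx10KD, Ddx27KD and Ddx54KD, but within 0.0411 for Ddx24KD.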

How the data were processed

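The deposited libraries are gene tables in which the authors estimated expected counts and TPM with RSEM against mm10, per the submitters' processing notes and the file headers; which RSEM version, aligner and annotation were used is not given in the sources used here. The authors' deposited EBSeq tables hold posterior probabilities, a score per gene, and ratios between groups, per the file headers. Expected counts were rounded to whole numbers. Genes were kept with edgeR's filterByExpr, scaled by TMM factors and tested with edgeR's quasi-likelihood test (edgeR 4.0.16, R 4.3.3) in 1 fit of 5 group means over 15 libraries, with Benjamini-Hochberg adjustment over 14335 genes and a threshold of 0.05. DESeq2 1.42.0 and limma-voom 3.58.1, other scaling factors, filters, a threshold of 0.01, left-out libraries and a replicate block were tried as alternatives.

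Libraries with the same replicate number deviated together: all 30 such correlations of residual log2 CPM lay between 0.106 and 0.335, those between different numbers between -0.249 and 0.0530, and 15 of 15 libraries were closest to their own number. The numbers therefore pair the libraries, a pairing that the main fit ignores. The edgeR values not marked as blocked, the figures and the fits with left-out libraries come from fits without the block. Calls lost with a library left out were lost without the pairing, and whether they hold with it was not tested. The blocked adjusted p is given for each member whose call against EGFPKD it changed. All 10 members lower in all 4 knockdowns kept those calls with the block.

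The members and lists were chosen with earlier results of these data known. Per-library values were printed for members that passed in 1 direction in all 4 knockdowns, the 3 smallest p each way per knockdown, pair calls, the 3 highest and 3 lowest mean TPM, and the pairs Gnl3 with Gnl3l and Rrp1 with Rrp1b. Of the 31 further genes, up to 2 each way per knockdown were named by smallest p. Positions are from GENCODE M21 and upstream sequences from RefSeq (GRCm38.p6), with 37 of 46 members matched.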

Additional observations from a re-analysis of the deposited data

Results flagged for a closer look

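Without the replicate block, Eif6 was the 1 member that passed a direct test between knockdowns. It was higher in Ddx10KD than in Ddx27KD by 0.28 log2 units (edgeR's quasi-likelihood test, adjusted p = 0.0484), with all 3 Ddx10KD libraries above all 3 Ddx27KD libraries. With the replicate block the adjusted p was 0.00143. The call was lost under 16 of 25 alternatives, with an adjusted p of up to 0.432.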

How the results depend on the processing

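The 52 calls of members described library by library gave 1300 values under 25 alternatives: 113 lost the threshold, 0 reversed, and 30 calls held under all. With the replicate block, members called numbered 20 in Ddx10KD, 25 in Ddx24KD and 27 in Ddx54KD, and between knockdowns 2 (Ddx10KD against Ddx24KD), 5 (Ddx10KD against Ddx27KD), 4 (Ddx10KD against Ddx54KD) and 2 (Ddx24KD against Ddx54KD). Of the further assembly genes in Ddx54KD, 19 passed with the block, and of all genes 5570 against 3483 without it. The block lost no call of a member against EGFPKD.

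At an adjusted p under 0.01, 6, 7 and 9 members passed in Ddx10KD, Ddx24KD and Ddx54KD, 6 further assembly genes in Ddx24KD and 0 members in Ddx10KD against Ddx27KD. At that threshold 4 members, 2 of them ITS2 cleavage genes, were lower in all 4 knockdowns, against 10 and 4 at 0.05 and 14 and 4 with the block at 0.05, and 2673, 2310, 3039 and 1860 of all genes passed in Ddx10KD, Ddx24KD, Ddx27KD and Ddx54KD. Without the replicate 2 libraries, chosen after seeing the data because Ddx24KD replicate 2 stood apart, 7 members passed in Ddx10KD, 9 in Ddx54KD and 0 in Ddx10KD against Ddx27KD, 6 were lower in all 4 knockdowns, and 2161 of all genes passed in Ddx54KD. Ddx10KD against Ddx27KD also gave 0 with RLE factors and with the compared groups alone. Ddx10KD against Ddx54KD gave 1 with DESeq2 and 1 at 10 CPM or more. Members lower in all 4 knockdowns numbered 9 with upper-quartile factors, 9 at 10 CPM or more and 8 with the compared groups alone. They numbered 10 with RLE factors, DESeq2, limma-voom and no count filter.

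Leaving out 1 library gave 8 to 15 members in Ddx10KD, 8 to 16 in Ddx24KD, 16 to 21 in Ddx27KD and 10 to 18 in Ddx54KD. It gave 0 to 1 in Ddx10KD against Ddx27KD and 0 in the other pairs. Members lower in all 4 knockdowns numbered 5, without EGFPKD replicate 1, to 10, of which the ITS2 cleavage genes were 2, without EGFPKD replicate 1 or Ddx24KD replicate 1, to 4. The share of all genes lower in all 4 knockdowns was counted only in the main fit and the blocked fit. Counts of such members under the other alternatives therefore have no share of all genes beside them. The further assembly genes numbered 9 to 12, 6 to 13, 11 to 15 and 7 to 13 in the same order of knockdowns, and all genes in Ddx54KD 2232, without Ddx54KD replicate 3, to 3868. The median of all genes stayed within 0.02 of 0 under every scaling. Depth was high for every member, and 14 of 46 had fractional expected counts in all 15 libraries (more than 0.02 from a whole number), where reads were divided among genes. These 14 were Senp3, Tex10, Nip7, Urb1, Rsl1d1, Noc3l, Pes1, Ftsj3, Rrs1, Gnl3l, Nvl, Rsl24d1, Nsa2 and Sdad1.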
